A study of Mus musculus with 8 samples.

Results

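RNA levels of 10 serpin genes were followed in BMEL cells, a bipotential line of liver progenitor cells derived from the mouse embryo. The genes are the 5 mouse genes for alpha-1-antitrypsin (Serpina1a, Serpina1b, Serpina1c, Serpina1d and Serpina1e) and 5 other secreted serpins of the liver (Serpina3n, Serpina6, Serpina10, Serpinf1 and Serping1). They were chosen by symbol, and their probes were found through the RefSeq accession of each probe. Of 20660 genes named on the array these are 10. A probe was found for 9 of them and none for Serpina1b. Only 5 (Serpina1a, Serpina1c, Serpina1d, Serpina1e and Serpina10) were well above background on at least 2 arrays and were tested, among 14044 genes tested in all.

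Total RNA was labelled with Cy3 and hybridised to 8 one-colour Agilent mouse arrays on 1 slide. All cells were of the same line and no genetic change is named, and the groups differ by medium. The medium was labelled NoRX for 3 arrays, CM for 3 and DIFF for 2. The series title names media conditioned by human amniotic epithelial cells, but the labels expand none of these names, and the length of exposure is not given in the sources used here. Sample titles call the DIFF arrays replicates 1 and 2, whereas another label gives the number 1 to both. Whether replicates were separate cultures is not stated, so p-values reflect only how these arrays spread, and that spread may be technical. BMEL is a single cell line, and its response stands for no other cells. The number of arrays limits the precision of every value. In RNA from a whole culture, a change in the share of cells that express a gene and a change in RNA per cell cannot be told apart.

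Serpins are proteins that present a loop as bait to a protease. An inhibitory serpin is cleaved by its target, changes shape and traps the enzyme in an inactive complex, while some family members have lost inhibition and carry hormones or signal. Alpha-1-antitrypsin is made mainly by hepatocytes and secreted into blood, where its chief target is the elastase of neutrophils. Humans have a single gene for it, and laboratory mice carry several near-identical copies side by side. Hepatocyte factors such as HNF1 and HNF4 drive these genes in the liver.

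The closeness of the copies shows in their promoters, and it matters for reading the arrays, because probes for such copies can share signal. The RefSeq promoter table (GRCm38.p6) held 7 of the 10 genes, all 5 Serpina1 copies among them. The windows below are 94 bases long, lie on the minus strand of chromosome 12 just upstream of each annotated start, and are printed 5′ to 3′. Capitals mark GTTAAT, a half-site of the HNF1 motif. They lie at chr12:103863627-103863720 (Serpina1a), chr12:103738202-103738295 (Serpina1b), chr12:103904964-103905057 (Serpina1c), chr12:103773636-103773729 (Serpina1d) and chr12:103956962-103957055 (Serpina1e).
Serpina1a: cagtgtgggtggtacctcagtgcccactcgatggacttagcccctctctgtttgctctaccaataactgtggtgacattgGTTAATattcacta
Serpina1b: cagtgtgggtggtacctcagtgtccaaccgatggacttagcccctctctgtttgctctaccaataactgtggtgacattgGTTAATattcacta
Serpina1c: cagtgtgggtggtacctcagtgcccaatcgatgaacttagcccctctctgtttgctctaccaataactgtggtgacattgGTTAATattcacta
Serpina1d: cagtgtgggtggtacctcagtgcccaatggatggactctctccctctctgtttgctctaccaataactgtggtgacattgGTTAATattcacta
Serpina1e: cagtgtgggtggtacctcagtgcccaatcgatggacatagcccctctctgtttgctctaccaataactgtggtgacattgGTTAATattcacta
The first base of GTTAAT lay 21, 26, 27, 16 and 78 bases before the annotated start of Serpina1a, Serpina1b, Serpina1c, Serpina1d and Serpina1e. All 5 windows were identical at 84 of 94 positions. When the 250 bases upstream of each start were aligned in 10 pairs, 188 to 248 bases could be aligned, and 92.1% to 98.0% of the aligned bases were identical. GTTAAT was searched on both strands of those 250 bases, and 6.43% of the promoters in the table (2113 of 32851) hold it. The windows of Serpina3n and Serpinf1 do not. A match of letters is a description and not a binding site. No probe or transcript sequences of the copies were compared, so the promoters do not show how far the probes share signal. Since probes for such copies can share it, values of the single Serpina1 copies below are uncertain as values of single genes.

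One array stood apart. On DIFF replicate 2, 46.4% of spots were well above background, against 50.8% to 53.5% on the others, and 1159 spots lay in areas of uneven local background, against 3 to 90 elsewhere. Its log2 signals, taken relative to the 75th percentile of each array, were lower than those of DIFF replicate 1 by a median of 0.26 over all genes (a difference of -0.26), and differences for the Serpina1 genes were -0.60 (Serpina1c) to -0.74 (Serpina1d). The median SD of a gene was 0.064 in NoRX, 0.064 in CM and 0.194 in DIFF. No spot of a member was an outlier, saturated or in uneven background. Slide position and medium overlap: row 1 of the slide held the 3 NoRX arrays and CM replicate 1, and row 2 held CM replicates 2 and 3 and both DIFF arrays.

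The cells were checked against marker lists. All 7 cholangiocyte markers were well above background on every NoRX and CM array, and 6 of the 7 on both DIFF arrays. Their summed signal, in units of the array's 75th percentile, was 492 to 534 in NoRX, 344 to 360 in CM and 334 to 421 in DIFF. Hepatocyte markers differed more between media. Their summed signal was 2.56 to 2.95 in NoRX, 3.66 to 5.54 in CM and 166 to 214 in DIFF, and the number of the 11 hepatocyte markers with a probe that were above background on every array was 3, 5 and 11. Of the 5 hepatoblast markers, 1 in NoRX, 2 in CM and 2 in DIFF were above background on every array of the medium. Gpc3 and Igf2 were above background on no array, and Dlk1 on no NoRX or DIFF array. The summed hepatoblast signal ran from 2.34 to 2.62 in NoRX, 3.98 to 4.66 in CM and 15.3 to 19.4 in DIFF. Both hepatoblast markers tested, Afp and Ahsg, were higher in CM (median 3.64) and in DIFF (median 5.88) than in NoRX. Ahsg is also on the hepatocyte list and was above background on no NoRX array, so its differences from NoRX start from background. For other cell types, Adgre1 and Lyz2 (macrophages), Tek (endothelium), Lum and Pdgfrb (stellate cells) and Alas2, Klf1 and Hbb-bt (erythroid cells) were above background on no array. Other members of these lists were above background on every array of a medium: 3 of the 7 macrophage and leukocyte markers with a probe, 4 of 7 endothelial and 1 of 5 erythroid markers in each medium, and, of 8 stellate cell and fibroblast markers, 4 in both NoRX and CM but 1 in DIFF. Summed stellate cell and fibroblast markers ran from 0.621 to 0.633 in NoRX, 1.31 to 1.61 in CM and 0.267 to 0.387 in DIFF. Those of macrophages and leukocytes ran from 17.1 to 18.7, 21.6 to 22.5 and 10.8 to 13.2, those of endothelium from 10.4 to 12.6, 10.6 to 11.6 and 8.45 to 9.97, and those of erythroid cells from 0.282 to 0.490, 0.252 to 0.478 and 0.705 to 0.769, in the same order of media. Their part in the results below was not tested.

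By the brightest probe of each, the measured alpha-1-antitrypsin genes were lowest in CM, intermediate in NoRX and highest in DIFF. In DIFF the brightest probes of Serpina1a, Serpina1c, Serpina1d and Serpina1e were 7.76- to 8.74-fold above NoRX and 15.2- to 16.4-fold above CM. In CM they were 1.79- to 2.10-fold below NoRX. Serpina10 passed the test in no comparison, and the other 4 members with a probe were near background on nearly all arrays.

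The brightest probe of Serpina1a (A_55_P2165414) gave processed signals of 405, 668 and 410 on the NoRX arrays, 304, 193 and 278 on the CM arrays, and 4715 and 4015 on the DIFF arrays. The groups do not overlap, and NoRX replicate 2 was the highest of its group. How often the groups of other genes separate in this way was not counted, here or for the Serpina1 genes below. On the log2 scale relative to the 75th percentile, the means were -0.61 ± 0.41 (SD, n = 3) in NoRX, -1.68 ± 0.31 (SD, n = 3) in CM and 2.35 ± 0.44 (SD, n = 2) in DIFF. The log2 difference of DIFF from NoRX was 2.97 ± 0.25 (SE, limma, adjusted p = 2.54e-06) and that of DIFF from CM 4.04 ± 0.25 (limma, adjusted p = 1.19e-07). CM lay below NoRX, with a log2 difference of -1.07 ± 0.22 (limma, adjusted p = 0.00194).

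Serpina1c has 1 probe, A_55_P2010301. Its signals were 360, 444 and 383 in NoRX, 277, 188 and 266 in CM, and 4182 and 3617 in DIFF. Every DIFF value was above every NoRX value, and every NoRX value above every CM value. The log2 differences were 3.09 ± 0.19 for DIFF from NoRX (limma, adjusted p = 1.94e-07), 3.95 ± 0.19 for DIFF from CM (limma, adjusted p = 1.53e-08) and -0.86 ± 0.17 for CM from NoRX (limma, adjusted p = 0.00135).

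Serpina1d was read by A_55_P2010298 at 67.9, 72.3 and 58.0 in NoRX, 44.4, 33.5 and 34.4 in CM, and 669 and 523 in DIFF. The groups again do not overlap. Its log2 differences were 2.96 ± 0.24 for DIFF from NoRX (limma, adjusted p = 1.88e-06), 3.93 ± 0.24 for DIFF from CM (limma, adjusted p = 1.09e-07) and -0.97 ± 0.21 for CM from NoRX (limma, adjusted p = 0.00275).

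Serpina1e gave signals of 279, 346 and 278 in NoRX, 209, 145 and 211 in CM, and 3287 and 2801 in DIFF with its brighter probe, A_55_P2113857. CM replicate 2 gave the lowest processed signal for this probe, as it was for those of Serpina1a, Serpina1c and Serpina1d. The log2 differences were 3.13 ± 0.19 for DIFF from NoRX (limma, adjusted p = 2.22e-07), 3.97 ± 0.19 for DIFF from CM (limma, adjusted p = 1.88e-08) and -0.84 ± 0.17 for CM from NoRX (limma, adjusted p = 0.00194).

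**Figure D1:**
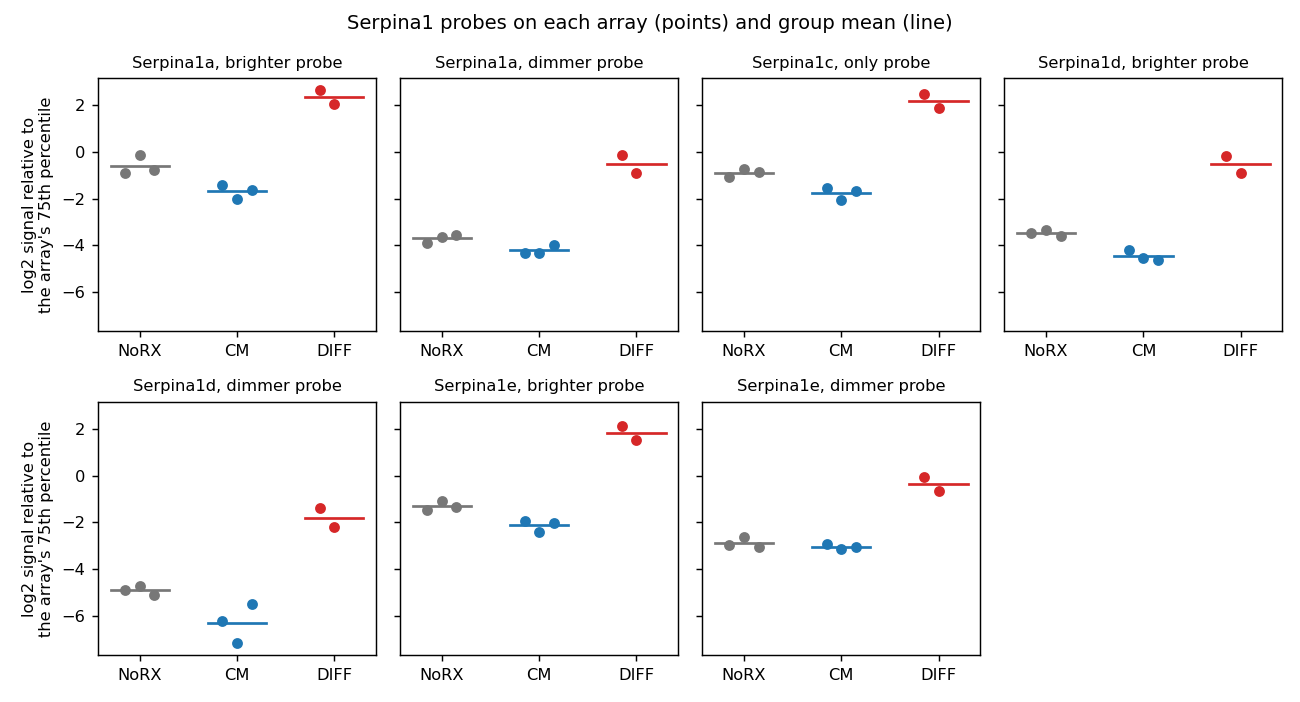
Log2 signal of each Serpina1 probe relative to the 75th percentile of its array (vertical axis) on the NoRX, CM and DIFF arrays, with a point for each array and a line at the group mean. Both DIFF arrays lie above all other arrays for every probe, and the CM arrays lie below the NoRX arrays for the brightest probe of each gene.

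These counts stand against a background in which a large share of all genes passed the same test. Of 14044 genes, 52.2% passed for CM against NoRX (26.9% higher in CM, 25.3% lower), and 4 of the 5 tested members were lower. For DIFF against NoRX 42.1% passed (14% higher, 28.1% lower), and 4 of the 5 were higher. For DIFF against CM 59.1% passed (23.6% higher, 35.5% lower), and 4 of the 5 were higher. The median log2 difference of all genes was 0.01, -0.10 and -0.12 in these comparisons, against -0.86, 2.97 and 3.95 over the 5 tested members. With arrays centred on their median, the split for DIFF against NoRX was 2400 genes higher and 2133 lower, against 1962 and 3948 as reported, and that for DIFF against CM 3937 and 3184, against 3315 and 4989. The comparisons share arrays, so their values are given side by side and not as independent evidence.

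The DIFF differences of the 4 Serpina1 genes passed under every alternative that could be fitted for them (22 against NoRX, 23 against CM). Among these was a fit to the authors' series table, whose values were identical to those used, so its outcome was fixed in advance. They ran from 2.13 to 3.44 against NoRX and from 2.70 to 4.35 against CM, on the log2 scale. Without DIFF replicate 2, the array that stood apart, the differences from NoRX were 3.28 for Serpina1a, 3.39 for Serpina1c, 3.33 for Serpina1d and 3.44 for Serpina1e. Without DIFF replicate 1 they were 2.66, 2.79, 2.59 and 2.82. Within slide row 2, which held 2 CM and 2 DIFF arrays, the differences of DIFF from CM were 4.17, 4.06, 4.06 and 4.06. No slide row held both NoRX and DIFF arrays. With the row as a block these differences rest on the CM arrays, which lie in both rows, and ran from 3.35 to 3.41.

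The lower level in CM was less stable to slide position. With the slide row as a block, the log2 difference of CM from NoRX was -0.80 for Serpina1a (adjusted p = 0.058), -0.71 for Serpina1d (adjusted p = 0.0886) and -0.66 for Serpina1e (adjusted p = 0.0564, all by limma), which no longer passed. Serpina1c still passed at -0.65 (limma, adjusted p = 0.0478). The members called lower went from 4 to 1 under this block. Within row 1, where CM replicate 1 alone stands against the 3 NoRX arrays and is assumed to vary as they do, the differences were the same and the adjusted p-values were 0.0649 for Serpina1a, 0.0137 for Serpina1c, 0.0286 for Serpina1d and 0.016 for Serpina1e. CM replicate 1 gave the highest processed signal of the CM arrays for Serpina1a, Serpina1c and Serpina1d, and for Serpina1e CM replicate 3 was slightly higher.

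**Figure D2:**
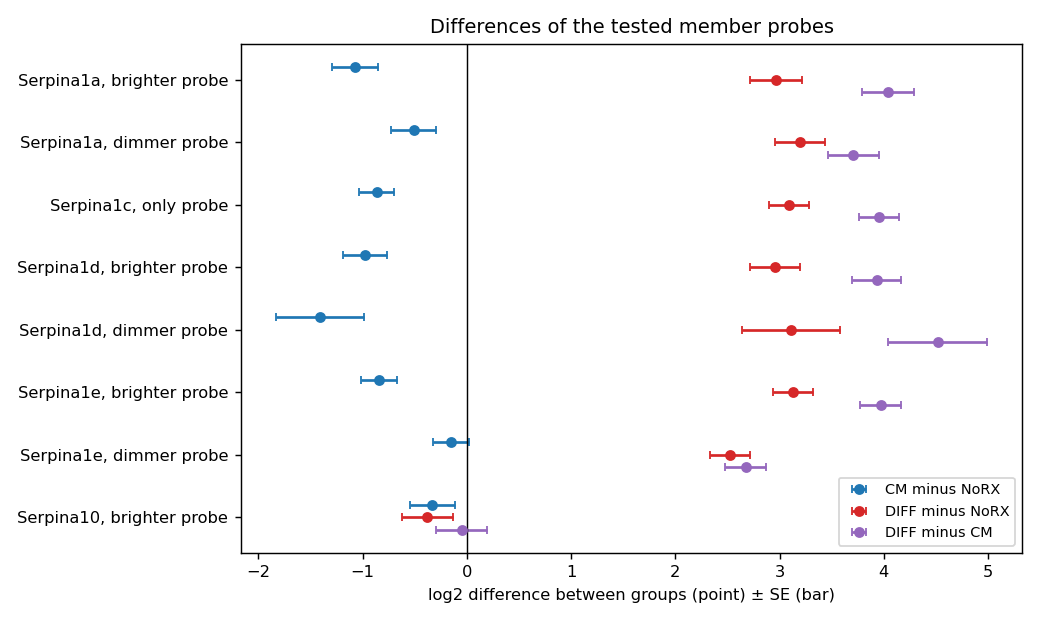
Log2 difference between groups (horizontal axis; point, with the SE as a bar) for each member probe that was tested, in the 3 comparisons. All Serpina1 probes lie at 2.52 or above for DIFF against NoRX and at 2.68 or above for DIFF against CM, and both differences of Serpina10 from NoRX lie just below 0.

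Serpina1a, Serpina1d and Serpina1e each have a second, dimmer probe, which was tested on its own among 18406 named probes. Every dimmer probe was higher in DIFF, and they did not all fall in CM. For Serpina1a, A_55_P2010312 gave 50.5, 58.6 and 59.9 in NoRX, 40.4, 38.7 and 53.4 in CM, and 684 and 520 in DIFF. The unscaled signals of CM and NoRX overlapped, their log2 values relative to the 75th percentile did not (-4.34 to -3.99 against -3.92 to -3.55), and the log2 difference of -0.51 ± 0.22 did not pass (limma, adjusted p = 0.0709). It passed in 6 of 23 alternatives, among them both fits that left out a DIFF array (adjusted p = 0.0238 for replicate 1 left out and 0.0214 for replicate 2). The difference of DIFF from NoRX was 3.20 ± 0.24 (limma, adjusted p = 1.27e-06).

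The dimmer Serpina1d probe, A_66_P121117, was above background only on NoRX replicate 2 and both DIFF arrays. Its signals were 25.8, 28.0 and 20.1 in NoRX, 10.6, 5.33 and 18.8 in CM, and 283 and 211 in DIFF. It was not well above background on any CM array, so the difference of DIFF from CM is given as a bound, at least 18.8-fold. This bound sets the DIFF mean against, on each CM array, the higher of the probe's own signal and the lowest signal called well above background. It is not a strict limit, because some higher signals were not called well above background. Examples are 28.6 for a Serpinf1 probe on CM replicate 1 and 21.3 for a Serping1 probe on CM replicate 2. The same holds for all folds below given as at least. The fitted difference of DIFF from NoRX was 3.11 ± 0.47 (limma, adjusted p = 0.000315), and that of CM from NoRX was -1.40 ± 0.42 (limma, adjusted p = 0.0164) between groups that were mostly below background.

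Serpina1e showed the widest disagreement between its probes. The dimmer probe, A_55_P2010292, gave 97.4, 119 and 84.5 in NoRX, 105, 89.5 and 103 in CM, and 717 and 611 in DIFF. NoRX and CM overlapped, with a log2 difference of -0.15 ± 0.17 (limma, adjusted p = 0.499). DIFF was higher by 2.52 ± 0.20 than NoRX (limma, adjusted p = 1.43e-06) and by 2.68 ± 0.20 than CM (limma, adjusted p = 5.19e-07), a 5.75-fold and a 6.39-fold difference where the brighter probe gave 8.74-fold and 15.6-fold. The log2 ratio of the dimmer to the brighter probe on the same array was -1.52, -1.54 and -1.72 in NoRX, -0.99, -0.69 and -1.03 in CM, and -2.20 and -2.20 in DIFF. These ratios do not overlap between groups, but how often the probe ratios of other genes separate by medium was not counted. For Serpina1a the same ratio ran from -3.51 to -2.77 in NoRX, -2.91 to -2.32 in CM and -2.95 to -2.78 in DIFF, with overlap. The ratios show that the probes of Serpina1e did not change equally between media, and which transcripts each probe binds was not tested.

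**Figure D3:**
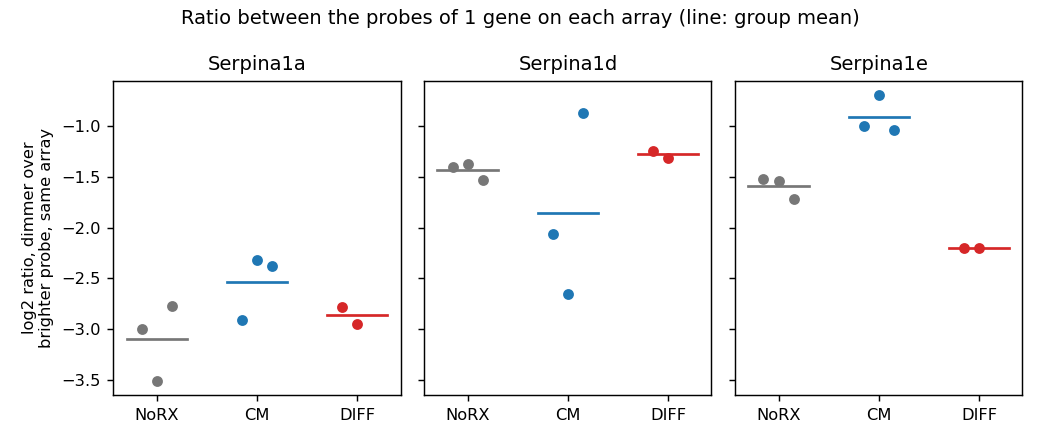
Log2 ratio of the dimmer to the brighter probe of Serpina1a, Serpina1d and Serpina1e on the same array (vertical axis), with a point for each array by medium and a line at the group mean. The ratio of Serpina1e lies at about -2.20 on both DIFF arrays, between -1.72 and -1.52 in NoRX and between -1.03 and -0.69 in CM, while those of Serpina1a overlap. For Serpina1d, CM (-2.65 to -0.87) spans both other media, and NoRX (-1.53 to -1.37) lies just below DIFF (-1.31 and -1.24).

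Across the 8 arrays, Pearson's r between pairs of the 7 Serpina1 probes ran from 0.934 to 0.9997, the highest being Serpina1c with the brighter Serpina1e probe. The arrays share the same 3 media, so that any genes that follow the media correlate. Of 13348 other genes with a value on every array and a name that is not only a clone or predicted name, 257 had an r above 0.95 with the brightest Serpina1a probe. These genes were picked for following the same arrays, so their differences below are a description, in which the direction was fixed by the choice. The highest were Pdgfrl (0.9933), Sptssa (0.9914) and Car15 (0.9909). Pdgfrl was lower in CM than in NoRX, with a log2 difference of -0.65 (limma, adjusted p = 0.000649), and higher in DIFF, with 1.83 (limma, adjusted p = 5.53e-07). Sptssa, a small subunit of serine palmitoyltransferase, had smaller differences of -0.25 (limma, adjusted p = 0.0165) and 0.68 (limma, adjusted p = 6.52e-05). Without NoRX replicate 2, CM replicate 1 or CM replicate 2 the CM difference of Sptssa was -0.21, -0.23 or -0.24 and no longer passed. Car15, a carbonic anhydrase, had differences of -0.24 (limma, adjusted p = 0.042) and 0.79 (limma, adjusted p = 6.21e-05), and its CM difference no longer passed without NoRX replicate 1 or 2 or without any CM array, at -0.27 to -0.20 (highest adjusted p = 0.158).

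Serpina10 encodes the protein Z-dependent inhibitor, which restrains coagulation factor Xa. Its brighter probe gave 60.3, 52.1 and 63.0 in NoRX, 47.1, 51.5 and 56.1 in CM, and 54.6 and 49.5 in DIFF. The unscaled signals of all groups overlapped. Relative to the 75th percentile, the log2 values of CM (-4.11 to -3.92) lay just below those of NoRX (-3.83 to -3.48), and the DIFF arrays gave -3.77 and -4.30, on either side of the CM values. The log2 differences were -0.33 ± 0.22 for CM from NoRX (limma, adjusted p = 0.243), -0.38 ± 0.25 for DIFF from NoRX (limma, adjusted p = 0.249) and -0.05 ± 0.25 for DIFF from CM (limma, adjusted p = 0.878). The difference of DIFF from NoRX passed only without DIFF replicate 1, at -0.64 (limma, adjusted p = 0.0495), and was -0.11 without DIFF replicate 2. Its r with the Serpina1 probes ran from -0.31 to -0.11. The second probe was above background on NoRX replicate 1 alone, at 39.7.

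The remaining members were measured at or near background and were not tested. Serpina3n encodes an acute-phase inhibitor related to human alpha-1-antichymotrypsin. Its probe was above background on 1 array, CM replicate 1, at 250, while no other array gave more than 9.27. The other CM arrays gave 5.28 and 4.51, so the CM group did not share this signal. Of the other Serpina3 genes, which lie in the same family, Serpina3b was also highest on CM replicate 1, at 726 against 218 to 309 on the other arrays, and Serpina3h was lowest there, at 111 against 121 to 184. CM replicate 1 had 343 named probes above background on that array alone, and the other arrays had 145 to 363.

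Serping1 encodes the C1 inhibitor, which controls the first proteases of the complement cascade and plasma kallikrein. One of its probes was above background on no array, with signals of 16.6, 21.3 and 19.1 in CM, 5.27, 4.69 and 14.4 in NoRX, and 16.5 and 9.54 in DIFF. Its other probe was above background on CM replicate 3 alone, at 159, followed by 26.8 on CM replicate 1 and 9.36 or less elsewhere. Both probes therefore gave no value that could be compared between media.

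Serpina6 encodes corticosteroid-binding globulin, a serpin that carries hormone and inhibits no protease. Both of its probes were above background on no array, with signals between 3.96 and 10.8. Serpinf1 encodes pigment epithelium-derived factor, also without inhibitory activity. Its probes were above background on no array as well, with signals from 4.53 to 28.6. No level can be given for these genes from such signals.

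**Figure D4:**
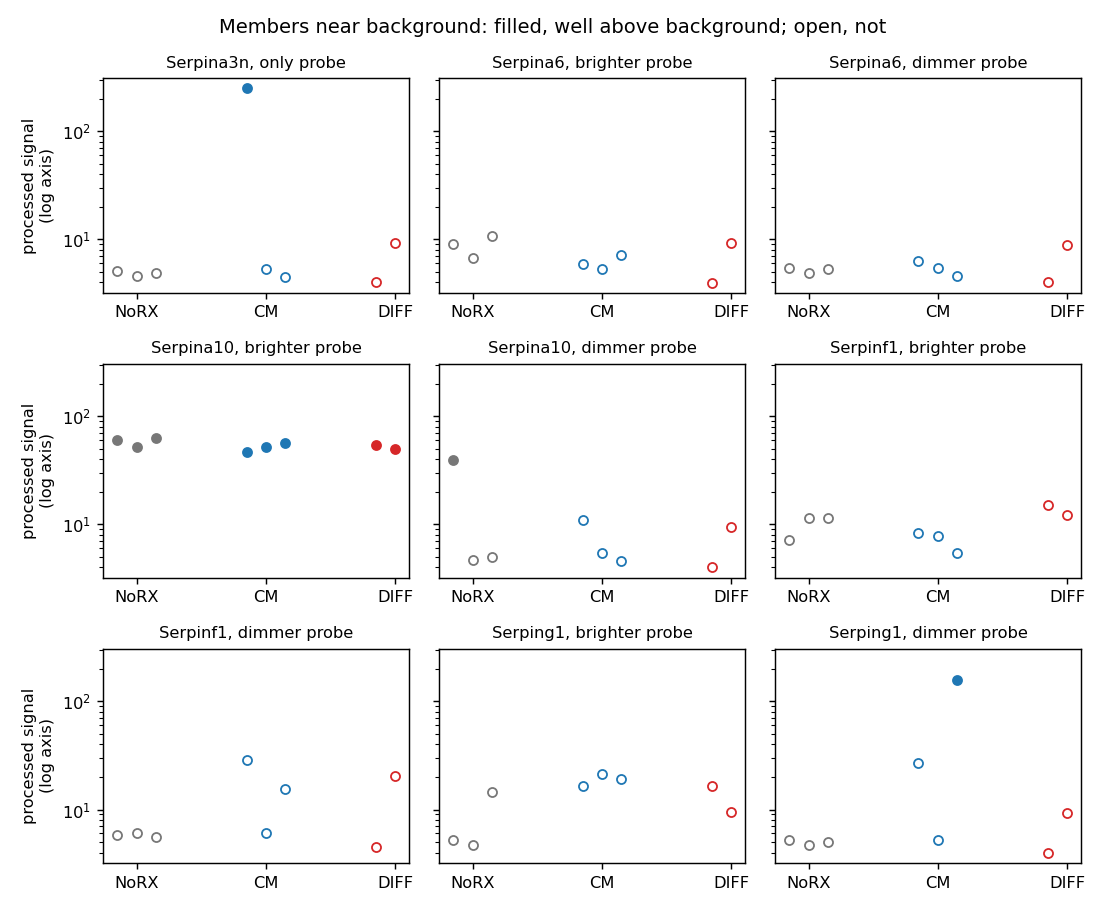
Processed signal (vertical axis, log scale) of the probes of Serpina10, Serpina3n, Serpina6, Serpinf1 and Serping1 on each array by medium, filled where well above background and open where not. Serpina10 lies between 47.1 and 63.0 on all arrays with its brighter probe, and Serpina3n and Serping1 each have a single filled point, at 250 on CM replicate 1 and 159 on CM replicate 3.

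The rest of the serpin family did not share 1 direction. Of 52 other serpin genes listed, 49 had a probe and 27 were tested. In CM against NoRX 9 were higher, 7 lower and 11 did not pass (median log2 difference 0.12). In DIFF against NoRX 4 were higher, 9 lower and 14 did not pass (median -0.15). In DIFF against CM 7 were higher, 11 lower and 9 did not pass (median -0.36). Over all genes tested, 26.9% were higher and 25.3% lower in CM against NoRX, and 14% and 28.1% in DIFF against NoRX. For DIFF against CM these shares were 23.6% and 35.5%. A mix of directions was thus not particular to the serpins. After another background correction, normexp with an offset of 50, the number lower was 4 for CM and 5 for DIFF against NoRX.

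Among the secreted serpins, Serpinf2 (alpha-2-antiplasmin, which inhibits plasmin) was highest in DIFF. Its signals were 35.9, 32.3 and 25.1 in NoRX, 16.2, 9.39 and 19.6 in CM, and 293 and 275 in DIFF. It was above background on no CM array and on NoRX replicates 1 and 2 only. Serpinf2 was at least 17.8-fold higher in DIFF than in CM by the bound used for Serpina1d. Its log2 difference was 2.99 ± 0.34 for DIFF from NoRX (limma, adjusted p = 3.1e-05) and -1.24 ± 0.30 for CM from NoRX (limma, adjusted p = 0.00523), and the latter, between groups at or below background, did not pass after normexp (adjusted p = 0.0677) or with the row block (adjusted p = 0.0864).

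Serpind1, the thrombin inhibitor heparin cofactor II, was above background only in DIFF, at 87.1 and 74.8. The other arrays gave 5.50 to 16.5. By the bound used for Serpina1d, DIFF was at least 3.65-fold above NoRX and at least 6.62-fold above CM. With array weights neither fitted difference passed (adjusted p = 0.111 and 0.123 by limma). Serpina7, the thyroxine-binding globulin, was instead highest in CM, at 315, 228 and 374. It gave 23.0 to 31.1 in NoRX and 34.7 and 34.7 in DIFF, and was well above background there only on NoRX replicate 2 and DIFF replicate 1. The fitted log2 difference of CM from NoRX was 3.37 (limma, adjusted p = 5.44e-07), which sets CM against signals mostly not well above background.

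Several intracellular clade B serpins were highest in CM. Serpinb1a, an inhibitor of neutrophil elastase that stays inside cells, gave 5686, 6695 and 5245 in NoRX, 30460, 33113 and 33453 in CM, and 2286 and 2878 in DIFF. It was 4.99-fold higher in CM than in NoRX (limma, adjusted p = 9.87e-09). Serpinb1c was 5.37-fold higher in CM than in NoRX (limma, adjusted p = 1.87e-06) and lower in DIFF than in CM by a fitted log2 difference of -4.18 (limma, adjusted p = 2.62e-08). It was not well above background on DIFF replicate 2, and its difference between DIFF and NoRX (-1.75) did not pass after normexp (-0.39, adjusted p = 0.154). Serpinb11 and Serpinb9f were above background on every NoRX and CM array and on neither DIFF array. By the bound used for Serpina1d, DIFF was at least 2.02-fold below NoRX and at least 6.73-fold below CM for Serpinb11. For Serpinb9f DIFF was at least 2.07-fold below NoRX and at least 7.86-fold below CM. The fitted differences of both from NoRX did not pass after normexp (adjusted p = 0.406 and 0.484). Serpinb9g was above background in CM alone, by the same bound at least 3.74-fold above NoRX and at least 3.45-fold above DIFF. Its difference between DIFF and CM did not pass after normexp (limma, adjusted p = 0.0918). Both NoRX and DIFF were below background for Serpinb9g, so no fold between them is given.

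Serpinb5, known as maspin, was lower in DIFF, at 961 and 1093, than in NoRX (8682 to 9966) and CM (10671 to 12305). This was a 10.8-fold difference from NoRX (limma, adjusted p = 2.07e-10). Serpinb9, an inhibitor of granzyme B, was 1.48-fold higher in DIFF than in NoRX (limma, adjusted p = 0.00156) and 1.51-fold lower in CM (limma, adjusted p = 0.000388), so that its order of media was that of Serpina1a with far smaller steps. With array weights its difference between DIFF and NoRX did not pass (adjusted p = 0.123). Serpinb6b was 1.65-fold higher in DIFF than in NoRX (limma, adjusted p = 4.55e-05). Serpini1 (neuroserpin) was above background on single arrays, NoRX replicate 3 and DIFF replicate 1, and on no CM array. The tested probe of Serpina3i was above background on NoRX replicates 1 and 2 only. Its difference between CM and NoRX was -2.77 (limma, adjusted p = 0.0273). This did not pass without NoRX replicate 1, NoRX replicate 2 or CM replicate 3 (adjusted p = 0.128, 0.119 and 0.0635) or with the row block (adjusted p = 0.159). Another probe of Serpina3i, not tested, was above background on CM replicate 3 alone, at 60.2, so the probes of this gene disagree.

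Proteases and partners of the serpins were mixed too. Of 33 listed, 20 were tested, and 8 were higher and 2 lower in CM than in NoRX (median 0.27). In DIFF 4 were higher and 6 lower than in NoRX (median -0.18), and 4 higher and 8 lower than in CM (median -0.13). All genes were mixed as well, with shares higher and lower of 26.9% and 25.3%, 14% and 28.1%, and 23.6% and 35.5% in these comparisons. With arrays centred on their median the number lower in DIFF was 2 against NoRX and 4 against CM. F2, prothrombin, rose in both media: its signals were 343 to 478 in NoRX, 1439 to 1513 in CM, and 1924 and 2079 in DIFF. That was 3.33-fold in CM (limma, adjusted p = 4.3e-07) and 4.29-fold in DIFF (limma, adjusted p = 1.53e-07). The step from CM to DIFF (0.36, limma, adjusted p = 0.0265) did not pass without CM replicate 2 (0.37), CM replicate 3 (0.34) or DIFF replicate 1 (0.23, highest adjusted p = 0.16). F12, coagulation factor XII, was 6.60-fold higher in DIFF than in NoRX (limma, adjusted p = 1.17e-05), where it was above background on 1 array.

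Tmprss2, a membrane serine protease, was lower in CM, at 639 to 682, than in NoRX (2374 to 2820) and DIFF (2148 and 2175). It was 4.50-fold below NoRX in CM (limma, adjusted p = 3.96e-08). Elane, the neutrophil elastase that alpha-1-antitrypsin inhibits, was 1.62-fold higher in CM (limma, adjusted p = 1.54e-05) and 2.06-fold lower in DIFF than in CM (limma, adjusted p = 8.07e-07). Nr3c1, the glucocorticoid receptor, was 1.44-fold higher in CM (limma, adjusted p = 0.00014). Proc, protein C, was 1.30-fold lower in CM (limma, adjusted p = 0.00626) and 1.45-fold lower in DIFF than in NoRX (limma, adjusted p = 0.00213), and the latter did not pass with array weights (adjusted p = 0.128). With the row block neither passed (adjusted p = 0.121 for CM and 0.156 for DIFF).

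Ctsl, the lysosomal cathepsin L, was 1.77-fold lower in DIFF than in NoRX (limma, adjusted p = 0.000116) and 2.30-fold lower than in CM (limma, adjusted p = 3.15e-06). Lrp1, a receptor that takes up complexes of serpins with proteases, was 1.32-fold lower in DIFF than in NoRX (limma, adjusted p = 0.00169), a call lost with arrays centred on their median (adjusted p = 0.144). Pnpla2, a triglyceride lipase, was 1.31-fold higher in DIFF than in NoRX (limma, adjusted p = 0.00442), which was lost after normexp (adjusted p = 0.109) and with the row block (adjusted p = 0.185).

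Further calls in this list were lost when single arrays were left out. C1ra, a complement protease that Serping1 inhibits, had a signal of 215800 on DIFF replicate 2 in an area of uneven background, against 59.1 on DIFF replicate 1 and 42.5 to 75.4 in CM, and without that spot its log2 difference of DIFF from CM was 0.24 (limma, adjusted p = 0.667) where it had been 5.97. Masp1, a protease of the lectin pathway, was above background on CM replicates 2 and 3 alone, at 81.7 and 124, and its call for CM against NoRX (2.70, limma, adjusted p = 0.0321) was lost when any NoRX array or either of those CM arrays was left out, at 1.93 to 2.75 (highest adjusted p = 0.145). With the slide row as a block the difference of Masp1 was 0.12 (limma, adjusted p = 0.93), and NoRX was at background throughout, so 2.70 measures no fold over a level. F9, coagulation factor IX, was lower in DIFF than in CM by a log2 difference of -0.63 (limma, adjusted p = 0.0199), lost without CM replicate 3 (-0.53, adjusted p = 0.0757) or DIFF replicate 2 (-0.38, adjusted p = 0.123).

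Of 24 genes for the folding, export and disposal of alpha-1-antitrypsin, 23 were tested. In CM 9 were higher than in NoRX and 14 did not pass (median 0.12). In DIFF 13 were higher and 1 lower than in NoRX (median 0.26), and 10 higher and 5 lower than in CM (median 0.15). Over all genes the shares higher and lower were 26.9% and 25.3%, 14% and 28.1%, and 23.6% and 35.5% in these comparisons. Without DIFF replicate 1 the number lower in DIFF was 5 against NoRX and 11 against CM, and without either DIFF array 14 were higher in CM. Fbxo2, which recognises glycans on misfolded glycoproteins for degradation, moved most. It gave 1547 to 1823 in NoRX, 2914 to 3259 in CM, and 23113 and 25897 in DIFF. This was 12.6-fold above NoRX in DIFF (limma, adjusted p = 2.07e-10) and 1.68-fold in CM (limma, adjusted p = 2.26e-05).

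The next largest differences among the genes of this list that were higher in DIFF than in NoRX were those of Herpud1, Pdia4 and Calr. Herpud1, which acts in the degradation of misfolded proteins of the endoplasmic reticulum, was 2.61-fold higher (limma, adjusted p = 9.24e-07). Pdia4, a disulfide isomerase, was 2.05-fold higher (limma, adjusted p = 1.69e-05), and the chaperone calreticulin (Calr) 1.98-fold (limma, adjusted p = 6.22e-06). The coat proteins of export vesicles were higher in CM than in NoRX, Sec23a by 1.56-fold (limma, adjusted p = 4.22e-05) and Sec24d by 1.53-fold (limma, adjusted p = 2.5e-05), as was Tfeb, a regulator of lysosome genes, by 1.46-fold (limma, adjusted p = 0.0015).

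Sec23a was 1.64-fold lower in DIFF than in CM (limma, adjusted p = 2.94e-05) and Tfeb 1.78-fold lower (limma, adjusted p = 0.000125). The mannosidase-like Edem2 and Edem3 were 1.41- and 1.37-fold lower in DIFF than in CM (limma, adjusted p = 0.00878 and 0.000966), and both calls were lost with arrays centred on their median (adjusted p = 0.0772 and 0.112). Man1b1, an ER mannosidase, was the single gene of the list lower in DIFF than in NoRX (-0.23, limma, adjusted p = 0.0494). Its call was lost without any of the NoRX or CM arrays (-0.24 to -0.23) and without DIFF replicate 2 (-0.09, adjusted p = 0.0975).

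Known regulators of hepatic serpin genes split between directions. Of 21 listed, 20 were tested. In CM 10 were higher and 5 lower than in NoRX (median 0.22). In DIFF 7 were higher and 7 lower than in NoRX (median 0.10), and 5 higher and 8 lower than in CM (median -0.11). All genes split as well, with shares higher and lower of 26.9% and 25.3%, 14% and 28.1%, and 23.6% and 35.5% in these comparisons. Without DIFF replicate 2 the numbers higher in DIFF were 11 against NoRX and 9 against CM, and with arrays centred on their median the split against CM was 8 higher and 5 lower. Hnf4a, a main hepatocyte transcription factor, was lower in CM than in NoRX by 1.66-fold (limma, adjusted p = 3.18e-05), with signals of 40115 to 48414 against 58152 to 72157. In DIFF it gave 49993 and 54702, also below every NoRX array. Foxa2, a pioneer factor of liver genes, was 1.85-fold lower in CM than in NoRX (limma, adjusted p = 4.76e-06). Its log2 signals in DIFF, 5.05 and 4.84, also lay below those of NoRX (5.17 to 5.35), but with arrays centred on their median that difference was -0.17 and did not pass (limma, adjusted p = 0.374). In CM its relative Foxa1 was 3.47-fold higher than in NoRX (limma, adjusted p = 1.19e-08) and Prox1 2.11-fold higher (limma, adjusted p = 0.00052).

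Cebpa, a liver transcription factor, was higher than NoRX in both media, 2.11-fold in CM (limma, adjusted p = 1.9e-05) and 1.68-fold in DIFF (limma, adjusted p = 0.000724), and with the row block the latter did not pass (adjusted p = 0.104). Cebpb, a factor of the acute-phase response, was 1.64-fold higher in DIFF than in NoRX (limma, adjusted p = 2.46e-05) and higher than in CM by 0.59 on the log2 scale (limma, adjusted p = 6.72e-05). The nuclear receptor Nr1i3 was 1.44-fold lower in CM (limma, adjusted p = 0.00249) and 2.36-fold lower in DIFF (limma, adjusted p = 1.43e-05) than in NoRX. The CM difference of Nr1i3 turned to 1.48 on the log2 scale when all its probes were averaged.

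Both chains of the interleukin-6 receptor, whose signal raises acute-phase genes in hepatocytes, were higher in DIFF. Il6ra gave 1072 to 1334 in NoRX, 1483 to 1613 in CM, and 6754 and 7155 in DIFF, a 5.12-fold difference from NoRX (limma, adjusted p = 1.35e-08). Il6st was 2.82-fold higher (limma, adjusted p = 8.95e-07). The related oncostatin M receptor (Osmr) was 1.92-fold lower in DIFF than in NoRX (limma, adjusted p = 3.95e-05), and Socs3, a feedback inhibitor of the pathway, 1.52-fold lower (limma, adjusted p = 5.58e-05). Il1r1, the interleukin-1 receptor, was 2.34-fold lower in CM (limma, adjusted p = 1.01e-06) and 1.52-fold lower in DIFF (limma, adjusted p = 0.000521).

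Albumin gives a measure of scale, since it is the main secreted product of hepatocytes. Its signals were 92.0, 68.6 and 42.4 in NoRX, 752, 544 and 831 in CM, and 34637 and 35404 in DIFF. Unlike the brightest probes of the 4 Serpina1 genes, albumin was higher in CM than in NoRX, with a log2 difference of 3.29 (limma, adjusted p = 5.65e-07), and its difference of DIFF from NoRX was 8.87 (limma, adjusted p = 4.42e-10). Of the 11 hepatocyte markers tested, 6 were higher in CM than in NoRX and 5 did not pass (median 0.72), and 11 were higher in DIFF (median 6.10). On the NoRX arrays 7 of the 11 were never above background, so their differences from NoRX start from background. After normexp the CM calls of Apoa1, Hp and Fgg were lost (limma, adjusted p = 0.513, 0.489 and 0.0576). With the row block Apoa1 lost its CM call and Apoc3 and Fga gained one. With array weights the DIFF call of Fga was lost (limma, adjusted p = 0.53). The brightest probes of the 4 Serpina1 genes thus ran with these markers in DIFF and in the other direction to the called ones in CM, where 3 of the 4 calls were lost with the slide row as a block and the dimmer probes of Serpina1a and Serpina1e did not pass.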

How the data were processed

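RNA of 8 samples was measured on 1 array each. The authors deposited processed signals, an intensity on a linear scale made with Agilent Feature Extraction 11.0.1.1 (protocol GE1_1100_Jul11), background-subtracted and detrended within each array, as stated per the file headers, with the version per the submitters' processing notes. Intensities in the authors' series table were identical (largest difference 0).

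Control spots (59305 spots remained) and outlier spots were left out, and spots of a probe were averaged. Log2 signals were taken minus each array's 75th percentile. Of 55681 probes, 27235 matched a RefSeq accession (GRCm38.p6 table) and 28446 did not. The array design names mm9, so no probe coordinates are given. Probes well above background on at least 2 arrays were kept, with the brightest probe per gene.

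All 8 arrays entered 1 limma 3.58.1 fit (R 4.3.3, lmFit, eBayes with trend), two-sided, Benjamini-Hochberg adjusted over all genes, threshold 0.05. The functions were tested on simulated data. Figures used matplotlib 3.10.9.

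The members, the lists and the rule for names were chosen with earlier results of these data known. That rule takes all members, the 4 largest called differences per list, direction and comparison, other serpins with at least 4-fold calls in more than 1 comparison, and the 3 genes most correlated with the highest Serpina1 probe. A gene that the rule takes is not reported here. Alternatives covered background correction, scaling, filters, probe choice, the authors' series table, slide row, replicate number, weights and each array left out. Normexp used the median spot signal, since the planned mean signal was not used here. The within-row fits, that normexp and the fit of single probes were chosen after seeing the data.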

Additional observations from a re-analysis of the deposited data

Results flagged for a closer look

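Both results below are signals of probes that were too rarely above background to be tested. The probe of Serpina3n was well above background on CM replicate 1, at a processed signal of 250, against at most 5.12 on the NoRX arrays and 9.27 on any other array. A probe of Serping1 was well above background on CM replicate 3, at 159, against at most 5.22 on the NoRX arrays and 26.8 on any other array. Each was seen on 1 of 3 CM arrays, and neither spot was marked as uneven in background.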

How the results depend on the processing

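Over 24 settings and 249 results, 5239 values were classed as unchanged, 187 lost a call and 61 gained one. The settings include the authors' series table, which was identical to the values used, so all its results are unchanged by construction. In addition, 90 counts moved by more than 1.5 times and 4 values reversed. Unchanged means the same side of the threshold, or for counts a move of at most 1.5 times. A change of sign counted as reversed only where either fit gave a call. Uncalled values that changed sign are thus among the unchanged, as for Serpina10 in DIFF against CM (-0.31 to 0.46). The reversed log2 differences were Nr1i3 for CM against NoRX with all probes averaged (1.48), Serpinb9g for DIFF against NoRX after normexp (0.21), Masp1 for DIFF against NoRX with the slide row as a block (-3.34) and F9 for DIFF against CM after normexp (0.0187), and the causes were not tested. With the slide row as a block 4792 genes passed for CM and 2803 for DIFF against NoRX, and with array weights 2989 genes differed between DIFF and NoRX and 5314 between DIFF and CM. Leaving out each array in turn, the counts ran from 6108 to 9307 for CM against NoRX, 4730 to 8485 for DIFF against NoRX and 7344 to 9786 for DIFF against CM. Without DIFF replicate 1, 6733 genes were lower in DIFF than in NoRX, and without DIFF replicate 2, 3767 were higher. The replicate block gave 6867, 5286 and 7766 genes. Deviations of same-numbered arrays from their group means correlated at -0.06 to 0.17. With 2 or 3 arrays in a group, these values cannot decide whether same-numbered arrays were paired. The replicate block changed no call of a member. The planned normexp on mean spot signals was not run, and the median spot signal took its place. Members near background could not be ranked between media at this signal.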
